A study of Mus musculus with 6 samples.

Results

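Lipid-associated macrophages are liver macrophages that gather around fat-laden and dying cells in steatohepatitis, and they are recognised by a shared program for taking up and breaking down lipid. Its lead gene, Trem2, encodes a surface receptor that senses lipids and apolipoproteins and signals through the adaptor Tyrobp. The program also holds the lysosomal membrane protein Gpnmb, the secreted matrix protein osteopontin (Spp1) and enzymes and carriers of fatty acids. From this program 10 genes were followed here, Trem2, Gpnmb, Cd9, Spp1, Lpl, Fabp5, Cd63, Lgals3, Atp6v0d2 and Capg, chosen by symbol. All 10 of 10 were found once each among 21956 genes in the table, and 10 of 10 passed the filter on low counts that left 13197 genes.

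Messenger RNA was measured by bulk polyA sequencing of whole liver in 6 mice. In 3 mice both alleles of Sting1, the adaptor that relays the sensing of cytosolic DNA, were floxed and Cre was driven by the endothelial Cdh5 promoter (Stingfl/fl Cdh5-Cre+, called knockout). The other 3 were littermates with the same floxed alleles and no Cre (Stingfl/fl Cdh5-Cre-, called control). From 8 weeks of age every mouse ate CDAHFD, a fat-rich diet that lacks choline and has amino acids in place of protein, for 10 weeks; this diet produces steatohepatitis, and no healthy liver and no chow-fed liver was compared. Cre was present in the knockout group alone, and effects of Cre and of the deletion cannot be told apart.

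Library totals ran from 18528915 to 20414466 counts in knockout and from 16704664 to 21025461 counts in control libraries. Sting1 itself had 106, 114 and 80 counts in the knockout libraries, against 240, 365 and 226 counts in the control libraries, a log2 fold change of -1.29 that did not pass the test over all genes. The labels name sinusoidal endothelial cells beside liver, whereas albumin (Alb) took 9.60% to 10.9% of the counts in knockout and 6.91% to 9.61% in control libraries, as in whole liver. Control replicate 2 stood apart, with the lowest Alb share and a TMM scaling factor of 1.26, where the other libraries had factors between 0.922 and 1.01. The factors of all knockout libraries lay below those of all control libraries, so that scaling moved every gene of the knockout up relative to control: without it the median log2 fold change of all genes was -0.21.

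Of the lipid-associated macrophage program, 9 genes had log2 fold changes of knockout over control between -0.31 and 0.145, and osteopontin (Spp1) was at 43.1% of its control level without passing the test. None of the 10 genes passed edgeR's quasi-likelihood test with Benjamini-Hochberg adjustment over all 13197 genes, where 0% were called (0 genes). DESeq2 called 119 genes of the whole table and limma-voom 0, with none of the 10 among them. At an unadjusted p under 0.05 there was 1 gene of the 10, Spp1, against 10.8% of all genes tested (1419 genes) in either direction and 7% in the lower direction. Relative to all genes the 10 were level: their median log2 fold change was -0.0106, with 4 above 0 and 6 below, and that of all genes was 0.00826. On total counts all 10 lay below 0, with a median of -0.24. For none of the 10 did the knockout libraries all lie above or all below the control libraries in CPM. Of all genes 16.4% were separated in this way, 7.25% higher and 9.14% lower in knockout livers. On total counts, where again none of the 10 was separated, the share of all genes was 21.2%, 1.74% higher and 19.5% lower. In bulk tissue, fewer cells of a type and less RNA per cell cannot be told apart.

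**Figure D1:**
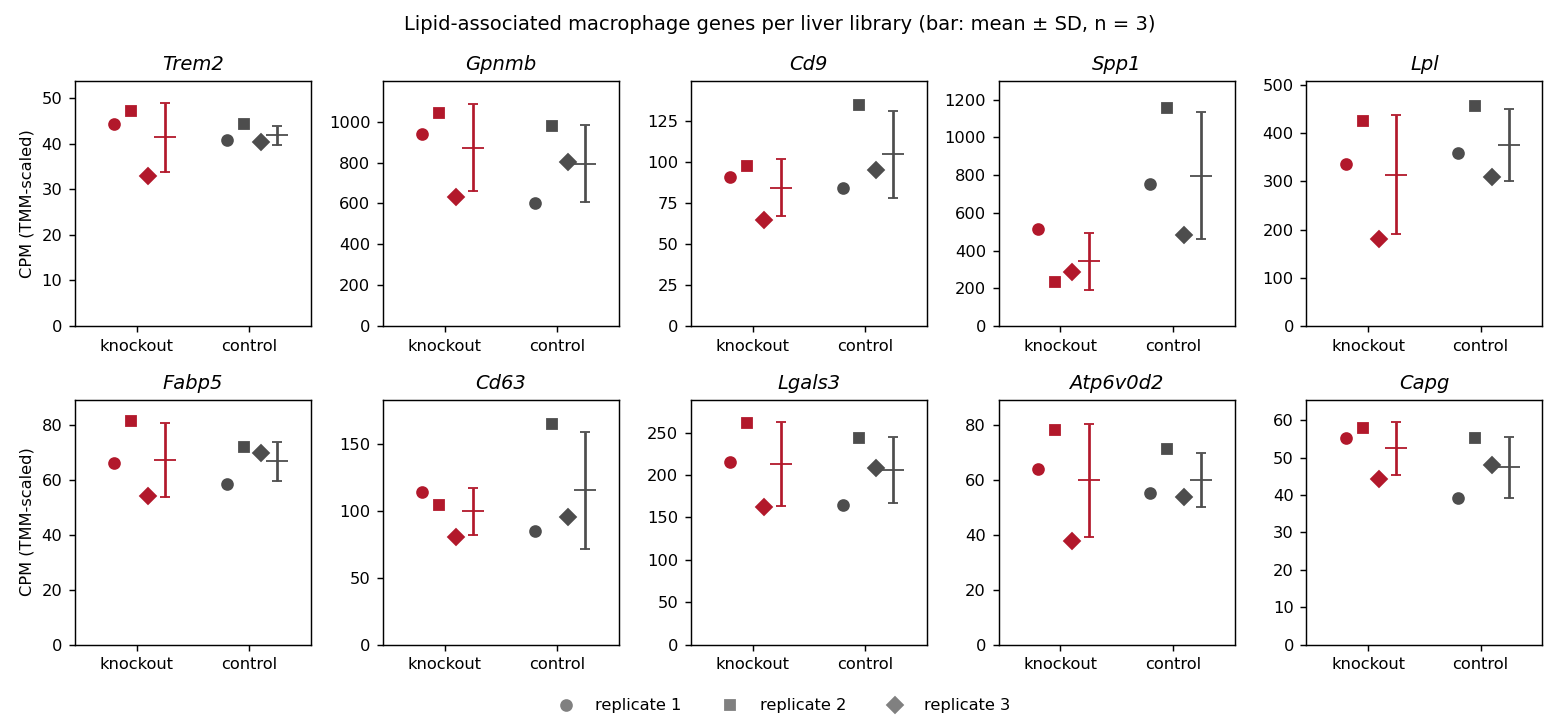
CPM (counts scaled to library size, TMM factors included, linear axes from 0) of each lipid-associated macrophage gene in every liver, with knockout in red left of control in grey, 1 point per library, and the mean ± SD of 3 libraries beside them. The groups overlap in every panel; Spp1 averages 343.7 CPM in knockout and 797.3 CPM in control livers, whereas Trem2 averages 41.4 CPM in knockout and 41.9 CPM in control livers.

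Relative to transcript length, the order of the program's genes by level was much alike in both genotypes. TPM, which corrects for length, is used for this order. In knockout livers Gpnmb came first with 438.1 ± 113.9 TPM (SD, n = 3), then Spp1 with 408.6 ± 176.9 TPM and Lgals3 with 309.3 ± 66.5 TPM. In control livers Spp1 came first with 1194 ± 719 TPM, then Gpnmb with 493.1 ± 206.2 TPM and Lgals3 with 357.6 ± 129.6 TPM. From the fourth place on the order by mean was the same in both groups: Cd63, Lpl, Cd9, Fabp5, Capg, Trem2 and Atp6v0d2. Atp6v0d2 was the lowest, with 39.7 ± 13.9 TPM in knockout and 48.5 ± 17.3 TPM in control livers.

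Most neighbours in that order were not separated by the spread of the libraries. In knockout livers the ranges of neighbours did not overlap at 2 steps, between Lgals3 and Cd63 and between Fabp5 and Capg. In control livers the ranges of all neighbours overlapped, although Spp1 exceeded Gpnmb in 3 of 3 control libraries and Gpnmb exceeded Spp1 in 2 of 3 knockout libraries. Spp1 made up 28.5%, 13.6% and 23.7% of the summed TPM of the 10 genes in knockout replicates 1 to 3, against 42.6%, 43.1% and 29.0% in control replicates 1 to 3. Every knockout share lay below every control share, by a narrow margin between knockout replicate 1 and control replicate 3.

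Trem2 (ENSMUSG00000023992, GRCm38 chromosome 17, 48346401 to 48354147, plus strand) is the receptor that gives these macrophages their usual name of Trem2 macrophages. It had 44.3, 47.1 and 32.8 CPM in knockout replicates 1 to 3, against 40.9, 44.3 and 40.5 CPM in control replicates 1 to 3. The control libraries lay close together, and the knockout libraries fell on both sides of them. The means were 41.4 ± 7.56 CPM in knockout and 41.9 ± 2.11 CPM in control livers (SD, n = 3), a log2 fold change of -0.0170 with an SE (standard error) of 0.15. The 95% interval ran from -0.37 to 0.33, and the adjusted p in edgeR's quasi-likelihood test was 0.975.

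The partners of Trem2 showed no call either. Of 12 genes of its signalling list 11 were tested, with 8 above 0, or 2 on total counts, and a median of 0.0771, or -0.16 on total counts. Tyrobp, the adaptor that carries the signal of Trem2, stood at 76.1 ± 12.5 CPM in knockout and 67.1 ± 7.11 CPM in control livers (SD, n = 3). Syk, the kinase recruited by Tyrobp, had a log2 fold change of 0.24, and Adam10, a protease that sheds the Trem2 ectodomain, one of -0.23; neither passed.

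Gpnmb (ENSMUSG00000029816, chromosome 6, 49036546 to 49070929, plus strand), a glycoprotein of lysosomes and the cell surface, was the most abundant of the 10 by mean TPM in knockout livers. Its values were 940.2, 1044 and 633.7 CPM in knockout replicates 1 to 3, against 603.3, 977.6 and 804.1 CPM in control replicates 1 to 3. High and low libraries were present in both groups. Its log2 fold change was 0.13 (SE 0.26), at an adjusted p of 0.865 in edgeR's test, and on total counts without TMM scaling it was -0.11.

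The proximal promoters of Trem2, Gpnmb and Spp1 are shown because Trem2 and Gpnmb are lead genes of the program, whose groups overlapped widely, and Spp1 is the gene that stood apart. Sequences are from RefSeq on GRCm38.p6, plus strand, 150 bases before to 20 bases from the RefSeq transcription start on, and capitals mark motif matches. For Gpnmb and Spp1 the RefSeq start differs from the GENCODE gene start given with the gene. The same holds for Cd9, Cd63, Lgals3 and Capg, whose windows were searched but are not shown. The Gpnmb window ends at 49036537, before the GENCODE start at 49036546.
Trem2, chr17:48346251-48346420: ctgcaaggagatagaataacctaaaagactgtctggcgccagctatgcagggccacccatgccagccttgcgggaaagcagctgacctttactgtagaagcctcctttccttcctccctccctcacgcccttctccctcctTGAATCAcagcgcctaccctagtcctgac
Gpnmb, chr6:49036368-49036537: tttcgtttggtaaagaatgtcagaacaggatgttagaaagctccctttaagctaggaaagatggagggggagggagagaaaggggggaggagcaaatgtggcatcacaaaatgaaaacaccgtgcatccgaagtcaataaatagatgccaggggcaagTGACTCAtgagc
Spp1, chr5:104434961-104435130: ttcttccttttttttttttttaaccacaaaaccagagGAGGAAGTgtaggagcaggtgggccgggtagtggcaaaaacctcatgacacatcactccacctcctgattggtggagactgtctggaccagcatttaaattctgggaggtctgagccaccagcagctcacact

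The motifs searched on both strands were the E-box CACGTG and the M-box CATGTG, which the lysosomal MiT/TFE factors are known to bind, the AP-1 element TGANTCA and the PU.1 core GAGGAAGT. In windows of 250 bases before to 50 after the start, 7.15%, 14.2%, 7.81% and 3.2% of 32851 promoters held them in that order. The AP-1 letters began at base -9 in Trem2 and at base 8 in Gpnmb, counted from the RefSeq start base as 0, and the PU.1 letters at base -113 in Spp1. Cd9 held the M-box letters at base -38. RefSeq promoters were matched for 7 of the 10 genes. The windows of Cd63, Lgals3, Capg and the second start of Spp1 held none of the 4 motifs. Those of Cd63, Lgals3 and Capg began at 128909095, 47373610 and 72549397 in that order. These positions lie inside the genes, past the GENCODE gene starts, which were not searched. Such matches describe letters and not binding.

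Atp6v0d2 (ENSMUSG00000028238, chromosome 4, 19876841 to 19922605, minus strand), a subunit of the proton pump that acidifies lysosomes in macrophages and osteoclasts, had 63.8, 78.2 and 37.6 CPM in knockout replicates 1 to 3. In control replicates 1 to 3 it had 55.2, 71.3 and 53.6 CPM. The highest and the lowest library were both knockout livers. Its log2 fold change was -0.00416 (SE 0.25), and the 95% interval ran from -0.58 to 0.57. Among 17 other subunits of the pump 14 lay above 0, with a median of 0.12, whereas on total counts 16 lay below 0 with a median of -0.10; none was called. Atp6v0d1, the widely expressed paralog of Atp6v0d2, stood at 74.3 ± 7.68 CPM in knockout and 65.1 ± 4.36 CPM in control livers (SD, n = 3).

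Lysosomal control genes had 5 of 10 above 0 and 5 below, or 2 and 8 on total counts, and none was called. Fnip1, a partner of folliculin that restrains MiT/TFE factors, had a log2 fold change of -0.50 (unadjusted p = 0.0239, adjusted p = 0.403 in edgeR's test). Mcoln1, a lysosomal calcium channel, had one of 0.34.

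Lgals3 (ENSMUSG00000050335, chromosome 14, 47367751 to 47386160, plus strand) encodes galectin 3, a lectin that binds damaged lysosomes and is secreted. It had 215.5, 261.4 and 161.8 CPM in knockout replicates 1 to 3, against 165.1, 243.3 and 208.7 CPM in control replicates 1 to 3. Both groups spanned nearly the same range. A log2 fold change of 0.0499 (SE 0.22) was found, at an adjusted p of 0.940 in edgeR's test, and on total counts it was -0.19. Of 7 genes in the galectin list, 6 other galectins and the galectin-3-binding protein Lgals3bp, 5 were tested and none was called; Lgals1 stood at a log2 fold change of 0.0409 and Lgals4, an epithelial galectin, at -0.84.

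Capg (ENSMUSG00000056737, chromosome 6, 72544391 to 72562983, plus strand), an actin-capping protein of the gelsolin family, had 55.3, 57.9 and 44.4 CPM in knockout replicates 1 to 3, against 39.1, 55.4 and 48.0 CPM in control replicates 1 to 3. The lowest library was control replicate 1. Its log2 fold change of 0.145 was the highest of the 10 (SE 0.17, adjusted p 0.764 in edgeR's test), and on total counts it was -0.0897. Of 5 tested relatives 4 lay below 0, or 5 on total counts. Svil, which encodes supervillin, had a log2 fold change of -0.51 (unadjusted p = 0.0157 in edgeR's test). Vil1, the epithelial villin, had one of -1.60 at low levels, 0.94 CPM in knockout and 2.9 CPM in control livers, and its groups overlapped. Flii lay above 0 at 0.19, with 72.7 CPM in knockout and 63.9 CPM in control livers. In CPM its groups did not overlap, as for 7.25% of all genes in that direction.

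Fabp5 (ENSMUSG00000027533, chromosome 3, 10012548 to 10016607, plus strand), a fatty acid carrier of macrophages and epithelia, had 66.4, 81.5 and 54.4 CPM in knockout replicates 1 to 3. In control replicates 1 to 3 it had 58.8, 72.1 and 70.0 CPM. Knockout libraries held both the highest and the lowest value. The difference was 0.00952 on the log2 scale (SE 0.17, 95% interval -0.38 to 0.40), and on total counts it was -0.21. Of 10 related carriers 5 were tested, with none called: Fabp4, the adipocyte and macrophage form, stood at 26.3 ± 3.05 CPM in knockout and 30.8 ± 10.7 CPM in control livers, and Fabp1, the hepatocyte form, at 1223 ± 328 CPM in knockout and 1009 ± 373 CPM in control livers (SD, n = 3).

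Lpl (ENSMUSG00000015568, chromosome 8, 68880491 to 68907448, plus strand), lipoprotein lipase, releases fatty acids from triglyceride-rich lipoproteins. It had 335.8, 425.0 and 180.5 CPM in knockout replicates 1 to 3, against 359.2, 456.4 and 309.8 CPM in control replicates 1 to 3. Knockout replicate 3 lay below all other libraries, and the other knockout libraries lay within the control range. The knockout over control difference was -0.26 on the log2 scale (SE 0.31, adjusted p 0.772 in edgeR's test), and without knockout replicate 3 it was 0.0239.

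Genes that anchor, inhibit or share substrates with Lpl lay above 0 in 12 of 14 cases with a median of 0.27, or in 8 with 0.0663 on total counts; edgeR called none and DESeq2 called 1. Vldlr, which takes up triglyceride-rich particles, had a log2 fold change of -1.38 (unadjusted p = 0.0464, adjusted p = 0.459 in edgeR's test), and its groups overlapped. Angptl8, a feeding-induced inhibitor of Lpl made by hepatocytes, had a log2 fold change of 2.05 with a standard error of 0.89, and its groups overlapped.

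Cd9 (ENSMUSG00000030342, chromosome 6, 125460266 to 125494791, minus strand) and Cd63 (ENSMUSG00000025351, chromosome 10, 128900989 to 128912822, plus strand) are tetraspanins, of the cell surface and of late endosomes in that order. Cd9 had 90.6, 97.1 and 64.6 CPM in knockout replicates 1 to 3, against 84.1, 134.5 and 95.2 CPM in control replicates 1 to 3. Cd63 had 114.1, 104.1 and 80.1 CPM in the knockout libraries, against 85.0, 164.9 and 95.4 CPM in the control libraries. Control replicate 2 was the highest library for both genes and knockout replicate 3 the lowest. The log2 fold changes were -0.31 for Cd9 and -0.21 for Cd63, with SEs of 0.22 and 0.26 and adjusted p of 0.623 and 0.781 in edgeR's test. Without control replicate 2 they were -0.0846 and 0.15. Pseudogenes Cd9-ps, Cd63-ps and Fabp5l2 are annotated but were not among the 21956 genes with counts, so that any split of reads with the 3 parent genes is uncertain. Exons of Cd9 also overlap an annotated transcript on the other strand, and exons of Spp1 one on the same strand.

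Of 15 other tetraspanins 10 lay above 0, or 4 on total counts, and none was called. In TMM-scaled CPM 2 were higher and 1 lower without overlap, where 7.25% and 9.14% of all genes were so. Tspan8, an epithelial tetraspanin, had 15.7, 2.41 and 7.25 CPM in knockout replicates 1 to 3, against 26.8, 56.2 and 12.7 CPM in control replicates 1 to 3. Its log2 fold change was -1.91 (unadjusted p = 0.0486, adjusted p = 0.461 in edgeR's test), and knockout replicate 1 lay above control replicate 3.

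Spp1 (ENSMUSG00000029304, chromosome 5, 104435118 to 104441050, plus strand) encodes osteopontin, a secreted integrin ligand that both macrophages and bile duct cells make. It had 515.7, 231.0 and 284.3 CPM in knockout replicates 1 to 3, against 755.2, 1154 and 483.2 CPM in control replicates 1 to 3. Knockout replicate 1 lay just above control replicate 3, and the other knockout libraries lay below all controls. The means were 343.7 ± 151.3 CPM in knockout and 797.3 ± 337.3 CPM in control livers (SD, n = 3), which gives the 43.1% stated above.

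On the log2 scale Spp1 stood at -1.21 (SE 0.39, 95% interval -2.10 to -0.33). By edgeR's quasi-likelihood test the unadjusted p was 0.0130, rank 442 of 13197 genes, and the adjusted p 0.381. An exact permutation test, two-sided, on CPM gave p = 0.2, where 0.1 is the smallest that 3 against 3 allows. DESeq2 gave an adjusted p of 0.0623. Leaving out control replicate 2 gave -0.84, and leaving out knockout replicate 1 gave -1.63. Without control replicate 2, and also without knockout replicate 3, its unadjusted p in edgeR's test exceeded 0.05.

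**Figure D2:**
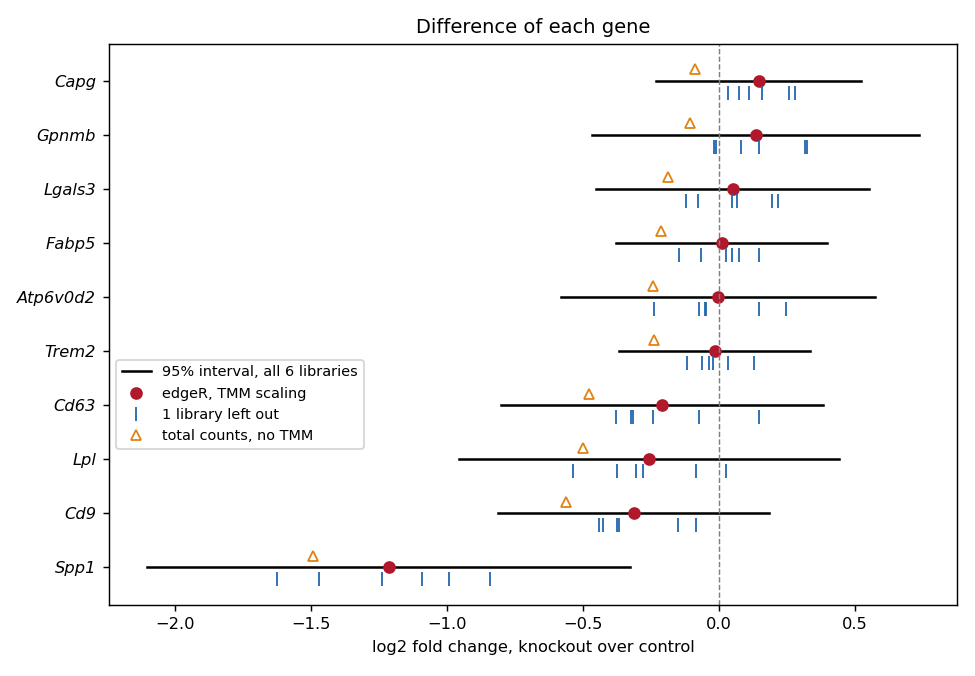
Log2 fold change of knockout over control for each lipid-associated macrophage gene (red points, edgeR with TMM scaling), with its 95% interval (black), the values with 1 library left out (blue ticks) and the value on total counts without TMM scaling (orange triangles). The interval of Spp1, from -2.10 to -0.33, lies below 0, and those of the other genes include 0; on total counts all triangles lie below 0, where the median of all genes is -0.21.

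Receptors of osteopontin were not called. Of the 10 in that list, Cd44 and 9 integrin chains, 8 lay below 0 with a median of -0.13, or 10 with -0.37 on total counts. Itga8, an integrin chain of stellate cells and smooth muscle, had 29.3, 18.8 and 20.4 CPM in knockout replicates 1 to 3, against 47.1, 73.5 and 27.0 CPM in control replicates 1 to 3. These libraries stood in the same order as those of Spp1, with a log2 fold change of -1.11 (unadjusted p = 0.0127, adjusted p = 0.381 in edgeR's test). Itgav, the alpha V chain, stood at 49.1 ± 6.06 CPM in knockout and 62.6 ± 8.82 CPM in control livers (SD, n = 3). It was the only 1 of the 10 whose groups did not overlap, against 9.14% of all genes in that direction.

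Spp1 and the bile duct markers placed the libraries in the same order. The 15 cholangiocyte markers summed to 170.0, 88.5 and 131.8 CPM in knockout replicates 1 to 3, against 235.3, 350.5 and 163.5 CPM in control replicates 1 to 3. All 6 libraries had the same order as for Spp1. The sum of the stellate cell and myofibroblast markers differed from that order only by an exchange of knockout replicates 2 and 3. How many of all genes share the order was not counted. All 15 cholangiocyte markers were detected, with summed total-count CPM of 83.28 to 156.6 in knockout and 159.4 to 440.6 in control livers. Of 14 tested 13 lay below 0, at a median of -1.41, and 9 had an unadjusted p under 0.05, where 7% of all genes were so in that direction. Over all genes edgeR called none of them and DESeq2 called 2. Epcam, a surface protein of bile duct cells, had 15.7, 3.10 and 7.58 CPM in the knockout libraries, against 27.5, 45.4 and 11.9 CPM in the control libraries. Without control replicate 2 the list's median was -0.92, with 3 at an unadjusted p under 0.05.

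Per unit of that signal, Spp1 differed less between the genotypes. The ratio of Spp1 to the summed cholangiocyte markers was 3.03, 2.61 and 2.16 in knockout replicates 1 to 3, against 3.21, 3.29 and 2.95 in control replicates 1 to 3. The means were 2.60 ± 0.44 in knockout and 3.15 ± 0.18 in control livers (SD, n = 3), and the two-sided exact permutation p was 0.2, with 0.1 the smallest possible. This ratio was chosen after the values were seen. The part of bile duct cells in the difference of Spp1 was not tested.

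**Figure D3:**
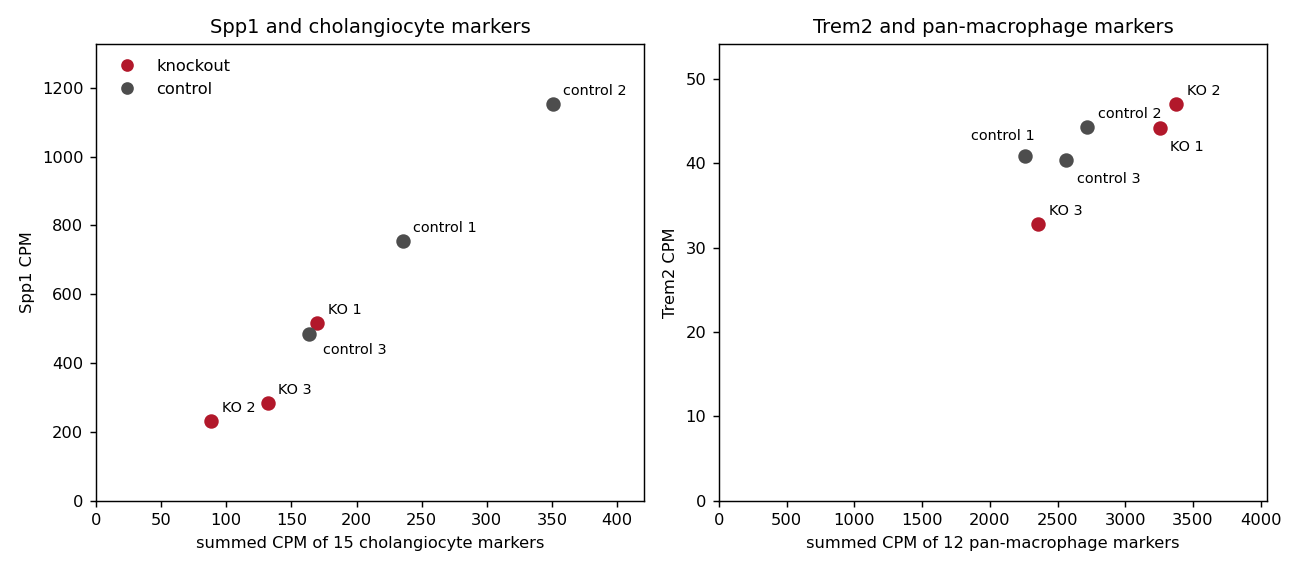
Left, Spp1 against the summed CPM of 15 cholangiocyte markers; right, Trem2 against the summed CPM of 12 pan-macrophage markers; each point is 1 liver library (linear axes from 0, CPM TMM-scaled, knockout red and control grey). Spp1 and the cholangiocyte sum place the 6 libraries in the same order, from knockout replicate 2 at 231.0 CPM to control replicate 2 at 1154 CPM, whereas Trem2 spans only 32.8 to 47.1 CPM.

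Across the 6 libraries the profile of Spp1 was on average the farthest from the other members, although some pairs of the other 9 were also far apart. Each gene's log2 CPM was standardized over the libraries, and the root mean square difference between profiles served as the measure of distance, with 0 for identical profiles. Spp1 had a mean distance of 1.13 to the other genes, where each of the others had between 0.555 and 0.71. Its nearest member was Cd9 at 0.80. The closest pairs were Trem2 with Atp6v0d2 at 0.162 and Gpnmb with Capg at 0.198. Among the 9 genes other than Spp1 the farthest pair was Lpl with Capg at 0.917, farther than Spp1 from Cd9.

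Libraries of the same genotype lay far apart. Knockout replicate 2 was the highest library for 6 of the 10 genes and knockout replicate 3 the lowest for 7. Control replicate 2 was the highest for the other 4, Cd9, Spp1, Lpl and Cd63, and control replicate 1 the lowest for Gpnmb and Capg. In standard deviation units the median of the 10 genes was 0.286, 1.02 and -1.31 in knockout replicates 1 to 3, against -0.583, 0.812 and -0.119 in control replicates 1 to 3. Without knockout replicate 3 the median log2 fold change of the 10 genes was 0.14, with 7 above 0, and without knockout replicate 2 it was -0.19, with 9 below 0.

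**Figure D4:**
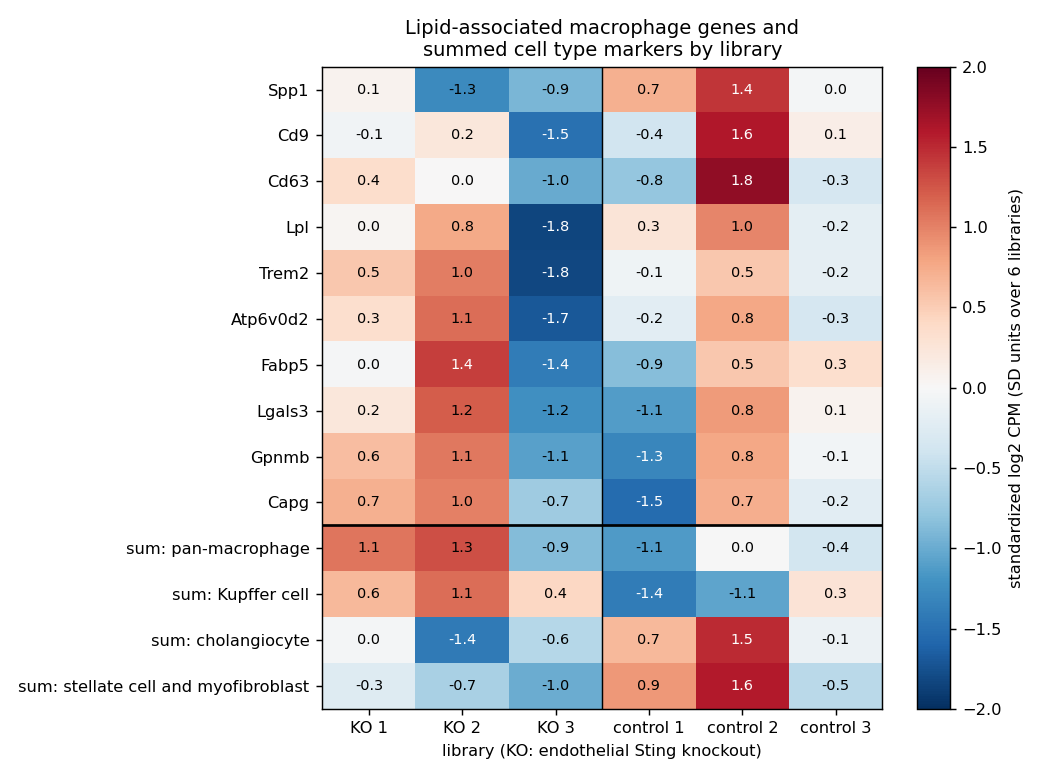
Log2 CPM of each lipid-associated macrophage gene and of 4 summed marker lists, standardized over the 6 libraries (colour and number, in SD units), with knockout libraries left of control libraries. Knockout replicate 3 is low in all 10 genes and control replicate 2 is high in all 10; Spp1 shares its highest and lowest library, control replicate 2 and knockout replicate 2, with the cholangiocyte sum.

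The genes most like Trem2 across the libraries were found among 12522 genes with a mean of at least 1 CPM. They were Milr1, an inhibitory receptor of mast cells and myeloid cells, at a distance of 0.0982, Zeb2, a transcription factor of macrophage identity, at 0.115, the histone demethylase Kdm4c at 0.124, and Atp6v0d2 at 0.162. The genes most like Spp1 were the G protein subunit Gnb4 and Msantd3, both at 0.0719, the epithelial myosin Myo5c at 0.0752 and the membrane protein Tm4sf4 at 0.0828. Tm4sf4 had 150.6, 113.9 and 124.6 CPM in knockout replicates 1 to 3, against 176.0, 205.4 and 143.0 CPM in control replicates 1 to 3. These names describe likeness over 6 libraries only.

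General macrophage markers had higher means in knockout livers, without a call. All 12 pan-macrophage markers were detected and lay above 0, with a median of 0.28, and their summed total-count CPM ran from 2186 to 3174 in knockout and from 2288 to 3417 in control livers. On total counts 7 of the 12 lay above 0, with a median of 0.0545. Adgre1, which encodes F4/80, had 104.7, 109.4 and 88.1 CPM in knockout replicates 1 to 3, against 61.2, 86.0 and 79.0 CPM in control replicates 1 to 3. In TMM-scaled CPM no knockout library overlapped the controls, as for 7.25% of all genes in that direction, whereas on total counts and in TPM they overlapped (log2 fold change 0.42, unadjusted p = 0.0327, adjusted p = 0.427 in edgeR's test). Csf1r, the receptor for macrophage colony-stimulating factor, and Cd68, a lysosomal glycoprotein of macrophages, had log2 fold changes of 0.28 and 0.13.

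Markers of resident Kupffer cells, the macrophages that line the sinusoids, were higher on average in knockout livers. All 12 lay above 0, with a median of 0.62 and 8 at an unadjusted p under 0.05, where 3.75% of all genes were so in that direction; none passed over all genes. On total counts 11 lay above 0, with a median of 0.44 and 1 at an unadjusted p under 0.05. Clec4f, a lectin of resident Kupffer cells, had 123.5, 147.4 and 131.2 CPM in knockout replicates 1 to 3, against 43.5, 69.3 and 124.9 CPM in control replicates 1 to 3. Timd4, a phosphatidylserine receptor of long-lived Kupffer cells, had 7.02, 7.86 and 3.41 CPM in the knockout libraries, against 1.11, 4.52 and 2.39 CPM in the control libraries. The number at an unadjusted p under 0.05 ran from 3 without control replicate 1 to 9 without control replicate 3.

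Set against summed general macrophage markers, all 10 genes had a lower mean in knockout livers, or 8 of 10 with Cd68 alone as the base. These markers themselves summed to 3254, 3374 and 2358 CPM in knockout replicates 1 to 3. In control replicates 1 to 3 the sum was 2259, 2719 and 2565 CPM. A base that is higher on average in knockout livers lowers such ratios for any gene. The share of all genes with a lower mean ratio was not computed. Each gene's CPM was divided by the summed CPM of the 12 pan-macrophage markers, and for 5 genes, Trem2, Cd9, Spp1, Fabp5 and Cd63, every knockout ratio lay below every control ratio. Of all genes tested 19% did so. The ratio of Trem2 was 0.0136, 0.0140 and 0.0139 in knockout replicates 1 to 3, against 0.0181, 0.0163 and 0.0158 in control replicates 1 to 3. For Cd9 the ratios were 0.0279, 0.0288 and 0.0274 in knockout libraries, against 0.0372, 0.0495 and 0.0371 in control libraries. Gpnmb and Capg overlapped, at means of 0.289 and 0.0177 in knockout and 0.313 and 0.0188 in control livers.

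That count depended on the marker chosen as the base, and the other bases were tried after the values were seen. Lyz2 made up 40.7% of the summed markers on average, and without it the count was 4, against 16.2% of all genes. With Cd68 as the base it was 3 (Cd9, Spp1 and Lgals3), against 9.81%, and with Csf1r 3, against 21.5%. With the C1q genes it was 4, against 23.7%, with Adgre1 9, against 36.4%, and with the summed Kupffer cell markers 5, against 40.1%. Cd9 and Spp1 were lower without overlap on each of these bases. The share of all genes lower on every base was not computed. All bases except the Kupffer cell sum were drawn from the same 12 markers. No gene of the 10 was higher without overlap on any base, where 0.152% to 0.962% of all genes were.

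**Figure D5:**
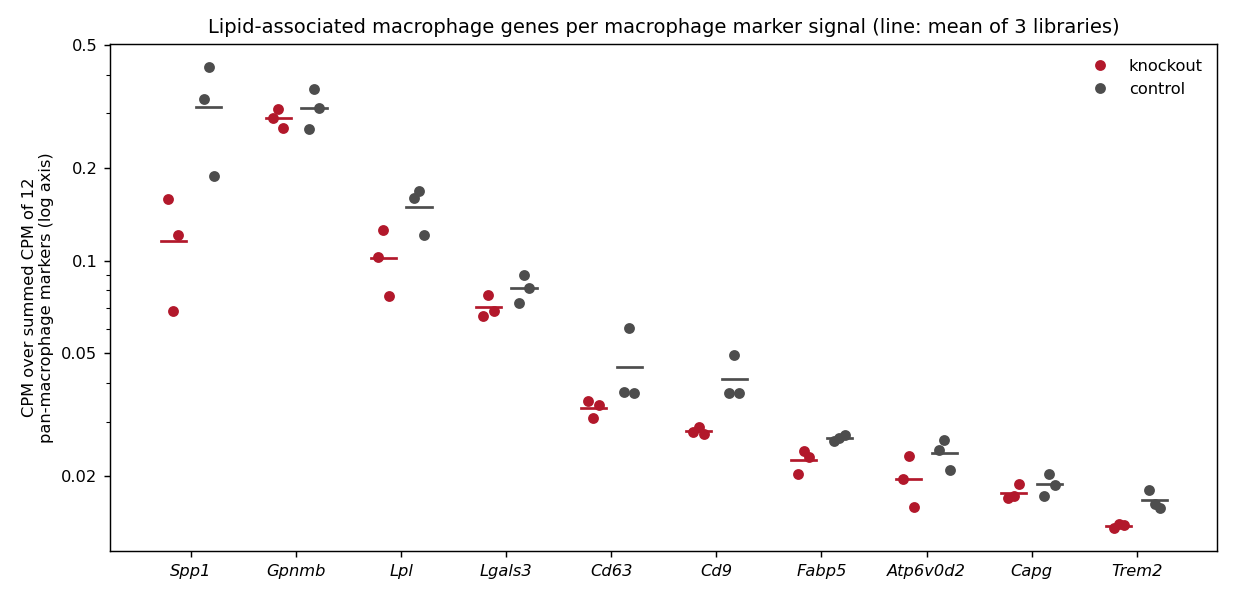
CPM of each lipid-associated macrophage gene divided by the summed CPM of 12 pan-macrophage markers (log axis), with the 3 knockout libraries in red left of the 3 control libraries in grey and a line at each mean. The knockout points of Trem2, Cd9, Spp1, Fabp5 and Cd63 lie below all control points, as they do for 19% of all genes, and those of the other 5 genes overlap.

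Other genes linked with this macrophage state showed no call. Of 28 such genes 27 were tested, with 15 above 0, a median of 0.0310 and none at an unadjusted p under 0.05. Acp5, the tartrate-resistant acid phosphatase, stood at 132.7 ± 6.19 CPM in knockout and 108.9 ± 15.2 CPM in control livers (SD, n = 3), and Ctsz, a lysosomal cathepsin, at 273.5 ± 12.6 CPM in knockout and 231.8 ± 21.1 CPM in control livers. In TMM-scaled CPM the groups of both did not overlap, as for 7.25% of all genes in that direction, and on total counts and in TPM both overlapped. Their log2 fold changes were 0.28 and 0.24. On total counts 23 of the 27 lay below 0, with a median of -0.20, where that of all genes was -0.21.

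Sterol-handling genes of macrophages were mixed, with 7 of 12 above 0, or 2 on total counts. Pparg, a nuclear receptor that drives lipid uptake genes, stood at 17.6 ± 0.98 CPM in knockout and 25.5 ± 3.93 CPM in control livers (SD, n = 3), without overlap, as for 9.14% of all genes in that direction (log2 fold change -0.54, unadjusted p = 0.00665, adjusted p = 0.370 in edgeR's test). Nr1h3, the liver X receptor alpha of Kupffer cells and hepatocytes, lay in the other direction at 0.40 (unadjusted p = 0.025, adjusted p = 0.405 in edgeR's test). In TMM-scaled CPM its groups did not overlap, as for 7.25% of all genes in that direction. Nr1h3 was also 1 of the 12 Kupffer cell markers. In the sterol list 2 genes were higher and 1 lower without overlap. Abcg1, a cholesterol exporter among the targets of Nr1h3, stood at 0.34.

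Markers of recruited monocytes had 7 of 12 above 0 and a median of 0.0279, or 4 and -0.24 on total counts. Ccr2, the receptor that draws monocytes to the liver, stood at 18.9 ± 7.78 CPM in knockout and 26.9 ± 6.68 CPM in control livers (SD, n = 3), and Ly6c2 had a log2 fold change of 0.12. Most of the summed signal of this list came from Fn1, which hepatocytes also make. Of 11 dendritic cell markers 3 lay above 0 (median -0.16).

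Of the other cell types, 12 of 15 markers of stellate cells and myofibroblasts lay below 0 (median -0.26), and Col1a1, the main fibrillar collagen, stood at -0.78. Their sum was 1652, 1505 and 1388 CPM in knockout replicates 1 to 3. In control replicates 1 to 3 it was 2154, 2552 and 1549 CPM, highest in control replicate 2 like Cd9, Cd63 and Spp1. Neutrophil markers had a median of 1.07 over 9 tested genes, T and natural killer cell markers 0.48 over 14, B cell markers 0.26 over 7, endothelial markers 0.23 over 12 and hepatocyte markers 0.35 over 12; on total counts these 5 medians were 0.81, 0.23, 0.0523, 0.0121 and 0.14. Knockout replicate 1 raised the first 3 medians, most of all that of neutrophils: neutrophil markers summed to 134.2, 27.1 and 21.1 CPM in knockout replicates 1 to 3, against 20.4, 37.4 and 33.3 CPM in control replicates 1 to 3. Without that library the neutrophil median was -0.30, with 8 of 9 below 0, the T and natural killer cell median 0.24 and the B cell median -0.0366. All 10 proliferation markers lay below 0 at an unadjusted p under 0.05 in edgeR's test (median -1.37), where 7% of all genes were so in that direction. Without control replicate 2 the median was -0.85, with 6 at an unadjusted p under 0.05. Over all genes edgeR's test called no member of these lists, whereas with a replicate block it called 1 proliferation marker, and DESeq2 called 3 proliferation markers and 1 T and natural killer cell marker; their part in the values of the 10 genes was not tested.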

How the data were processed

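The authors deposited 1 table with an estimated count and a TPM value per gene and library, made on GRCm38 per the submitters' processing notes, which name RSEM 1.3.3, HISAT2 2.2.1, fastp 0.23.2 and DESeq2 1.38.3 without roles. The annotation release and the use of strand in counting: not given in the sources used here. Counts were rounded (6.93% were not whole) and tested in edgeR 4.0.16 (TMM, filterByExpr, robust quasi-likelihood test, Benjamini-Hochberg at 0.05, prior count 2) in R 4.3.3, with limma 3.58.1 and DESeq2 1.42.0 as alternatives; the fit was tested on simulated data. Standard errors were the absolute log2 fold change over the root of F. The deposited TPM values served for levels. CPM used TMM-scaled totals unless said otherwise. Replicates are separate animals per the labels. Positions are from GENCODE M21. The 10 genes and all lists were chosen with earlier results of these data known; from each list up to 4 genes with the smallest p could be named, with a fixed set of cell markers and, for Trem2 and Spp1, the 4 most alike genes. Figures used Python 3.11.15 and matplotlib 3.10.9. A gene that the naming rule allows is not reported here.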

Additional observations from a re-analysis of the deposited data

How the results depend on the processing

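Under all 16 alternatives none of the 10 genes was called. Over the whole table, where 0 genes passed, DESeq2 called 119, the replicate block 5, and the fits that leave out 1 library 0 to 2, with 2 without control replicate 2 or without control replicate 3. Spp1 stayed below 0 in all 16, from -1.63 to -0.84, as did Cd9, from -0.56 to -0.0846. The labels state no pairing by replicate number. Deviations of same-numbered libraries had correlations of 0.115, -0.00678 and 0.133, and not every library correlated best with its own number. With 3 libraries a group, such correlations cannot decide whether same-numbered animals shared an origin. In the paired fit with the replicate block, Fabp5 turned to -0.00338. Values near 0 changed sign elsewhere, and the cause was not tested except that the median of all genes moved to -0.21 on total counts, -0.20 on log2(TPM + 1) and -0.23 on log2(TPM + 0.1). Gpnmb was there -0.11, -0.13 and -0.13, Fabp5 -0.21, -0.25 and -0.25, Lgals3 -0.19, -0.17 and -0.17, and Capg -0.0897, -0.0739 and -0.0743. Fabp5 was -0.0124 with upper quartile scaling and -0.00292 in limma-voom. Atp6v0d2 was 0.00391 with RLE factors, 0.00397 in DESeq2 and 0.00416 without a filter. With 1 library left out, ranges were -0.12 to 0.13 for Trem2, -0.0204 to 0.32 for Gpnmb, -0.54 to 0.0239 for Lpl, -0.15 to 0.15 for Fabp5, -0.38 to 0.15 for Cd63, -0.12 to 0.22 for Lgals3 and -0.24 to 0.25 for Atp6v0d2. Each of the 10 genes had at least 597 counts per library, and 3 animals a group limited the precision of the differences.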
